A study of Mus musculus with 8 samples.

Results

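The genes described here are 10 genes of autophagy initiation and cargo capture: Ulk1, Atg13 and Rb1cc1 of the ULK kinase complex, Atg2a, Atg14, Becn1, Wipi1, and the cargo receptors Sqstm1, Nbr1 and Optn. They were chosen by name, and all 10 were found among the 53465 rows of the count table. RNA was sequenced from Ba/F3, a mouse line of C3H background labelled as immortal pro-B cells, which is known to need interleukin-3 for growth. The libraries fall into parental cells with wild-type U2AF35 (parental 1, 2 and 3; n = 3) and cells transformed with U2AF35(S34F), a mutant of the smaller U2AF protein, which reads 3' splice sites during splicing (transformed 4 to 8; n = 5). The labels do not give how the mutant was introduced, whether a library is a separate culture or clone, or whether interleukin-3 was present, so the spread behind each p-value is that between libraries and may be technical.

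Autophagy is the enclosure of cytoplasm in a double membrane that is delivered to the lysosome. The ULK complex, a kinase (ULK1) on the scaffolds ATG13 and RB1CC1 (FIP200), starts it and is held back by mTORC1 and switched on by AMPK. A lipid kinase complex with Beclin 1 and ATG14 then makes the lipid PI3P, WIPI proteins bind PI3P, ATG2 proteins carry lipid into the growing membrane, and cargo receptors such as p62 (Sqstm1), NBR1 and optineurin link ubiquitinated cargo to it. Levels of these transcripts do not measure the flow through the pathway, and p62 protein is itself degraded by it.

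Total counts ran from 36122062 to 50305573 per library. The U2af1 row takes reads of both the endogenous gene and any introduced mouse copy. CPM here are counts scaled to library size with edgeR's TMM factors. U2af1 was at 85.3 to 98.2 CPM in parental and 92.0 to 157 CPM in transformed libraries. It was above all parental libraries in 4 of 5, and transformed 7 (92.0 CPM) lay inside the parental range. Transformed 4 and 7 stood apart. The root-mean-square difference of log2 CPM from the mean of the other transformed libraries was taken over 17733 genes. It was 0.69 in transformed 4 and 0.66 in transformed 7, against 0.32 to 0.38 in transformed 5, 6 and 8. From the parental mean it was 0.59 in transformed 4, 0.56 to 0.59 in transformed 5, 6 and 8, and 0.84 in transformed 7. Of 13 pro-B markers, Cd79a and Cd79b alone reached 1 CPM in every library. Rag1 and Il7r were at 0 in all 8 libraries. Genes of interleukin-3-responsive cells summed to 5817 to 8143 CPM in parental and 2002 to 6318 CPM in transformed libraries, with Kit at 0 in all. The summed pro-B level was 63.7 to 76.2 CPM in parental and 54.4 to 77.8 CPM in transformed libraries. Of the other marker lists, mast and basophil genes summed to 57.1 to 139 CPM in parental and 10.7 to 228 CPM in transformed libraries, and granulocyte and macrophage genes to 8.13 to 21.7 and 3.77 to 25.4 CPM. T cell genes stayed at or below 4.11 CPM and fibroblast genes at or below 0.42 CPM. The part of these differences in the results was not tested. In bulk RNA, fewer cells of a type and less RNA per cell cannot be told apart.

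None of the 10 genes passed an adjusted p of 0.05 in either direction when all 8 libraries entered edgeR's quasi-likelihood test. Of all 17733 genes tested, 2.10% were called lower and 0.908% higher. At an unadjusted p under 0.05, 6 of the 10 were lower (Ulk1, Atg2a, Atg14, Wipi1, Nbr1 and Optn) and 0 higher, against 11.6% and 10.6% of all genes. DESeq2 called 3 lower (Ulk1, Atg2a and Nbr1) and 0 higher, against 5.64% and 4.79%. Log2 fold changes, transformed over parental, were negative for 8 genes and positive for Becn1 and Sqstm1, with a median of -0.40 against 0.017 over all genes. For 3 genes (Ulk1, Atg2a and Nbr1) every transformed library lay below every parental one, as it did for 9.69% of all genes. Genes with every transformed library above were 8.07% of all and 0 of the 10.

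**Figure D1:**
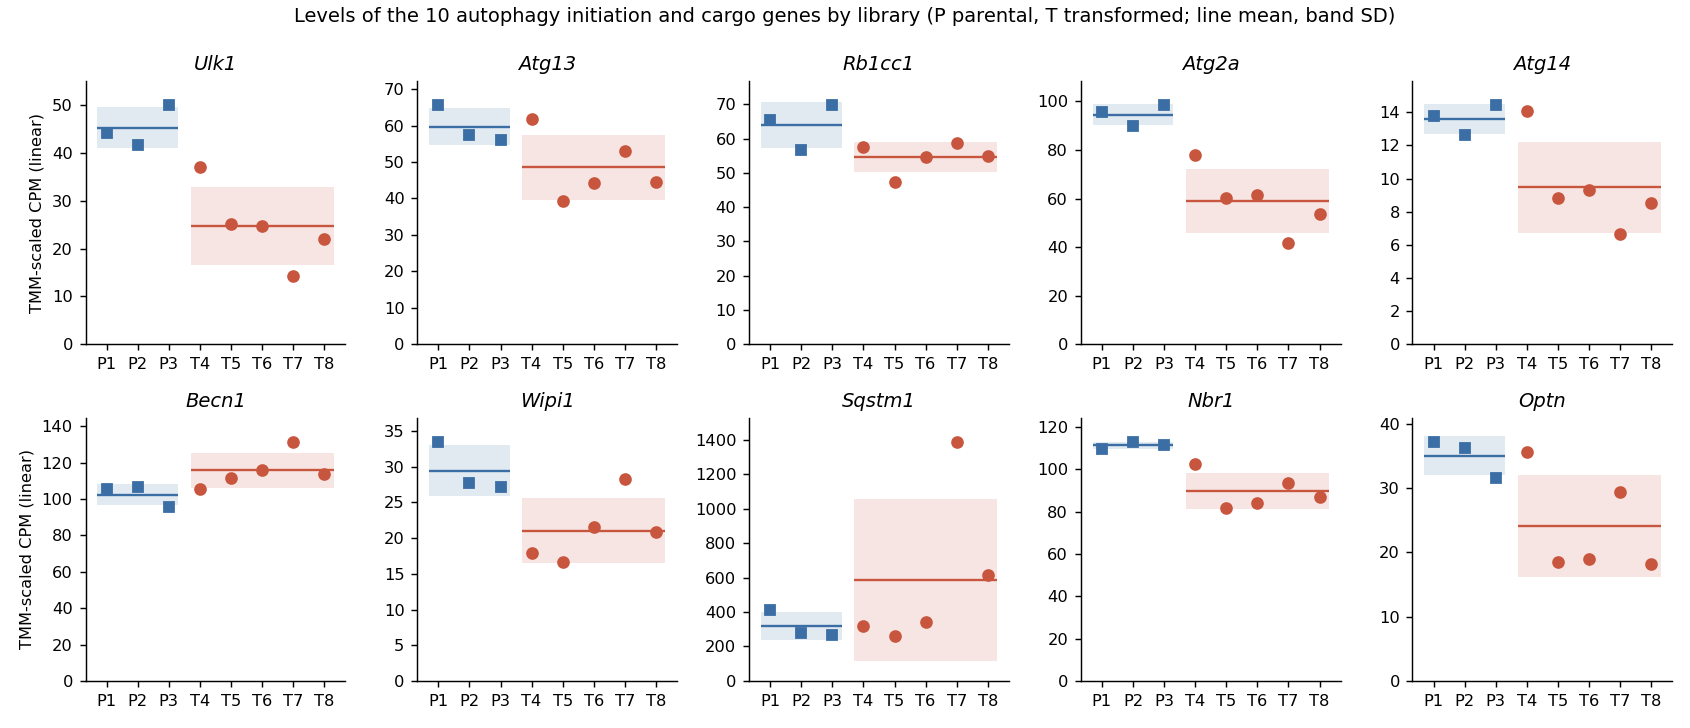
TMM-scaled CPM (vertical axes, linear, from 0) of the 10 genes by library (squares parental, n = 3; circles transformed, n = 5), with each group's mean as a line and its SD as a band. Ulk1, Atg2a and Nbr1 separate the groups, transformed 4 lies near the parental level for Atg13, Atg14 and Optn, and Sqstm1 reaches 1389 CPM in transformed 7.

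The starts of Ulk1 and Atg2a, the 2 genes with the most negative log2 fold changes, and of Sqstm1, the most positive, are shown to compare their sequence. Each is the 250 bases before the RefSeq transcription start (GRCm38.p6), 5' to 3' on the gene's strand, at chr5:110810082-110810331 (minus), chr19:6241418-6241667 (plus) and chr11:50210821-50211070 (minus). Capitals mark GC boxes (GGGCGG) and CCAAT boxes (CCAAT) on either strand.
Ulk1: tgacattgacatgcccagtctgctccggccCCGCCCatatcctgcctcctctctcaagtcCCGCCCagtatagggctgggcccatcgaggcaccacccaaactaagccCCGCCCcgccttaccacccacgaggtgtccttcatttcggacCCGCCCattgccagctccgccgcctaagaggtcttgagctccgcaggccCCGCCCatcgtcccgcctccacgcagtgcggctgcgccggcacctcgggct
Atg2a: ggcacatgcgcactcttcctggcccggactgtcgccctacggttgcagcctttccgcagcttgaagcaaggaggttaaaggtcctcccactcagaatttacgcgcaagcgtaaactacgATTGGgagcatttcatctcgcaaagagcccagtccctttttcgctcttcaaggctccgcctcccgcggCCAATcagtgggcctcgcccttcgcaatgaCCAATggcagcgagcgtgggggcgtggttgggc
Sqstm1: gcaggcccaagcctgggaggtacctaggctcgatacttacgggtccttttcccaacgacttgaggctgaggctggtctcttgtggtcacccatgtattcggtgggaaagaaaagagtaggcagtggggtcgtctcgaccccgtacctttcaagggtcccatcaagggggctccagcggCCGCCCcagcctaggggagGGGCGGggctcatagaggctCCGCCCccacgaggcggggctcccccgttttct
RefSeq windows were matched for 8 of the 10 genes. Ulk1 held 5 GC boxes and Sqstm1 3, with 0 CCAAT boxes in either, and Atg2a held 3 CCAAT boxes and 0 GC boxes. GC boxes were in 32.7% and CCAAT boxes in 33.8% of 32851 windows of all genes. These 2 motifs were chosen after the sequences were seen. The E-box CACGTG, the core of the sites bound by TFEB, was in 0 of the 9 windows of the 8 genes and in 6.02% of all. The antioxidant response core TGACNNNGC, bound by NRF2, was in 1 window (Atg13) and 10.2% of all, and the C/EBP-ATF core TGATGNAA in 0 and 3.45%. Both strands were searched, and a match or its lack says nothing here about binding.

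Ulk1 encodes the serine/threonine kinase that starts autophagy (ENSMUSG00000029512, GRCm38 chromosome 5, 110784488 to 110810097, minus strand). It was at 44.1, 41.7 and 50.03 CPM in parental 1, 2 and 3, and at 37.0, 25.2, 24.7, 14.3 and 22.0 CPM in transformed 4 to 8. The groups did not overlap, transformed 4 was nearest to the parental libraries and transformed 7 lowest. The parental mean was 45.3 ± 4.30 CPM (SD, n = 3) and the transformed mean 24.6 ± 8.15 CPM (SD, n = 5). This is a log2 fold change of -0.88 (SE 0.24), short of the threshold (edgeR adjusted p = 0.0829). The exact 2-sided permutation test of log2 CPM gave p = 0.0536, where the smallest possible is 0.0179. Ulk1 passed without transformed 4 (log2 fold change -1.07, edgeR adjusted p = 0.0108) and without transformed 7 (-0.73, edgeR adjusted p = 0.0387). Of the 18 alternative fits, it passed in 5 and missed in 13, among them lane as a covariate (edgeR adjusted p = 0.146).

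Its partners in the complex differed less. Atg13, the regulatory scaffold (ENSMUSG00000027244, chromosome 2, 91674618 to 91710576), was at 65.6, 57.5 and 56.02 CPM in the parental libraries and at 61.8, 39.2, 44.2, 52.9 and 44.4 CPM in transformed 4 to 8. Transformed 4 lay inside the parental range and the other 4 libraries below it, with a log2 fold change of -0.30 (SE 0.15, edgeR adjusted p = 0.273). The 42 tested genes within 1 Mb of Atg13 had a median of -0.24, and the other 1348 tested genes of chromosome 2 one of -0.15. The part of this in the value of Atg13 was not tested. Rb1cc1, the large scaffold FIP200 (ENSMUSG00000025907, chromosome 1, 6206197 to 6276648), was at 65.4, 56.6 and 69.8 CPM in parental and 57.4, 47.4, 54.5, 58.8 and 54.8 CPM in transformed libraries. The groups overlapped, with transformed 4 and 7 inside the parental range (log2 fold change -0.23, SE 0.10, edgeR adjusted p = 0.237). The ratio of Ulk1 to Rb1cc1 CPM, chosen after the values were seen and not tested, was 0.674, 0.736 and 0.717 in parental and 0.644, 0.533, 0.453, 0.244 and 0.402 in transformed 4 to 8. The kinase thus had fewer counts relative to this scaffold in every transformed library than in any parental one.

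Atg2a encodes a lipid-transfer protein that bridges the endoplasmic reticulum and the growing membrane (ENSMUSG00000024773, chromosome 19, 6241668 to 6262335, plus strand). It was at 95.5, 89.8 and 98.6 CPM in parental and 77.9, 60.1, 61.3, 41.8 and 53.8 CPM in transformed 4 to 8. As with Ulk1, the groups were separate, with transformed 4 highest and transformed 7 lowest of the transformed libraries. The log2 fold change was -0.68 (SE 0.17, edgeR adjusted p = 0.0622), and the exact permutation test gave its smallest p, 0.0179. Atg2a passed without transformed 4 (edgeR adjusted p = 0.00895) and without transformed 7 (edgeR adjusted p = 0.0294). It missed the threshold in 13 of the 18 alternatives. Genes around it were lower as well. The 87 tested genes within 1 Mb had a median log2 fold change of -0.43, with 16 called lower and 0 higher, and the other 510 tested genes of chromosome 19 had a median of -0.34. Around Ulk1 the 36 tested genes within 1 Mb had a median of 0.066, with 0 called. The part of the chromosome 19 shift in the value of Atg2a was not tested.

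In the lipid kinase complex the 2 genes went opposite ways. Atg14, the subunit that directs the complex to autophagy (ENSMUSG00000037526, chromosome 14, 47540893 to 47570649), was at 13.8, 12.6 and 14.4 CPM in parental and 14.1, 8.85, 9.29, 6.68 and 8.50 CPM in transformed 4 to 8. Transformed 4 was at the parental level and the other 4 libraries lay below all parental ones (log2 fold change -0.52, SE 0.21, edgeR adjusted p = 0.191). Without transformed 4 the log2 fold change was -0.71 (edgeR adjusted p = 0.0126), and Atg14 missed the threshold in 15 of the 18 alternatives. Becn1, the Beclin 1 scaffold (ENSMUSG00000035086, chromosome 11, 101285952 to 101302286), was at 105, 106 and 95.7 CPM in parental and 106, 112, 116, 132 and 114 CPM in transformed libraries. It was highest in transformed 7 and inside the parental range in transformed 4 (log2 fold change 0.18, SE 0.092, edgeR adjusted p = 0.295), and it missed the threshold in each of the 18 alternatives. The annotation of Becn1 shares 3104 exon bases (43.9%) with Cntd1 on the other strand, which held 34 to 64 counts per library, against 4363 or more for Becn1. The ratio of Atg14 to Becn1, also chosen after the values were seen, was 0.118 to 0.151 in parental, 0.133 in transformed 4 and 0.0508 to 0.0800 in the other 4 transformed libraries.

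Wipi1, a propeller protein that binds PI3P (ENSMUSG00000041895, chromosome 11, 109573331 to 109611967), had another order of libraries. It was at 33.5, 27.7 and 27.1 CPM in parental and 17.9, 16.7, 21.5, 28.3 and 20.9 CPM in transformed 4 to 8. Here transformed 7 lay inside the parental range and transformed 4 was among the lowest. The log2 fold change was -0.49 (SE 0.17, edgeR adjusted p = 0.142), and without transformed 7 it was -0.61 and passed (edgeR adjusted p = 0.0260). Wipi1 missed the threshold in 15 of the 18 alternatives.

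Of the cargo receptors, Sqstm1 had the widest spread of the 10 genes. It encodes p62, which binds ubiquitin and the ATG8 proteins and also the NRF2 inhibitor KEAP1 (ENSMUSG00000015837, chromosome 11, 50199366 to 50210827). It was at 411, 280 and 268 CPM in parental 1, 2 and 3, and at 322, 258, 343, 1389 and 613 CPM in transformed 4 to 8. Transformed 7 and 8 lay above all parental libraries, transformed 4 and 6 inside their range and transformed 5 below it. The log2 fold change was 0.87 (SE 0.56, edgeR adjusted p = 0.397) and 0.26 without transformed 7 (edgeR adjusted p = 0.635), and the exact permutation test gave p = 0.429. The coefficient of variation was 80.3% over the transformed and 24.9% over the parental libraries. Mrnip, which shares 580 exon bases (17.3%) with Sqstm1 on the other strand, held 178 to 364 counts per library, against 12206 or more for Sqstm1.

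Nbr1, a larger receptor of the same type (ENSMUSG00000017119, chromosome 11, 101552149 to 101581951), was tight in the parental libraries at 110, 113 and 111 CPM, and was at 103, 81.4, 84.0, 93.6 and 87.1 CPM in transformed 4 to 8. All 5 lay below the parental range, with transformed 4 nearest to it. The log2 fold change was -0.31 (SE 0.092, edgeR adjusted p = 0.0957, exact permutation test p = 0.0357), and Nbr1 passed without transformed 4 (edgeR adjusted p = 0.0164). It missed the threshold in 14 of the 18 alternatives. Optn, the receptor optineurin, which takes part in the removal of mitochondria and bacteria (ENSMUSG00000026672, chromosome 2, 5020642 to 5064051), was at 37.2, 36.3 and 31.5 CPM in parental and 35.6, 18.5, 19.0, 29.5 and 18.2 CPM in transformed 4 to 8. Transformed 5, 6 and 8 lay close together at 18.2 to 19.0 CPM. Transformed 7 lay between them and the parental libraries, and transformed 4 lay inside the parental range. The log2 fold change was -0.54 (SE 0.23, edgeR adjusted p = 0.220) and, without transformed 4, -0.72 (edgeR adjusted p = 0.0331). Optn missed the threshold in 15 of the 18 alternatives. The 14 tested genes within 1 Mb of it had a median log2 fold change of -0.084. The ratio of Sqstm1 to Nbr1 was 3.75, 2.48 and 2.41 in parental and 3.14, 3.17, 4.08, 14.8 and 7.04 in transformed 4 to 8. This ratio, chosen after the values were seen, was above all parental ones in transformed 6, 7 and 8.

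**Figure D2:**
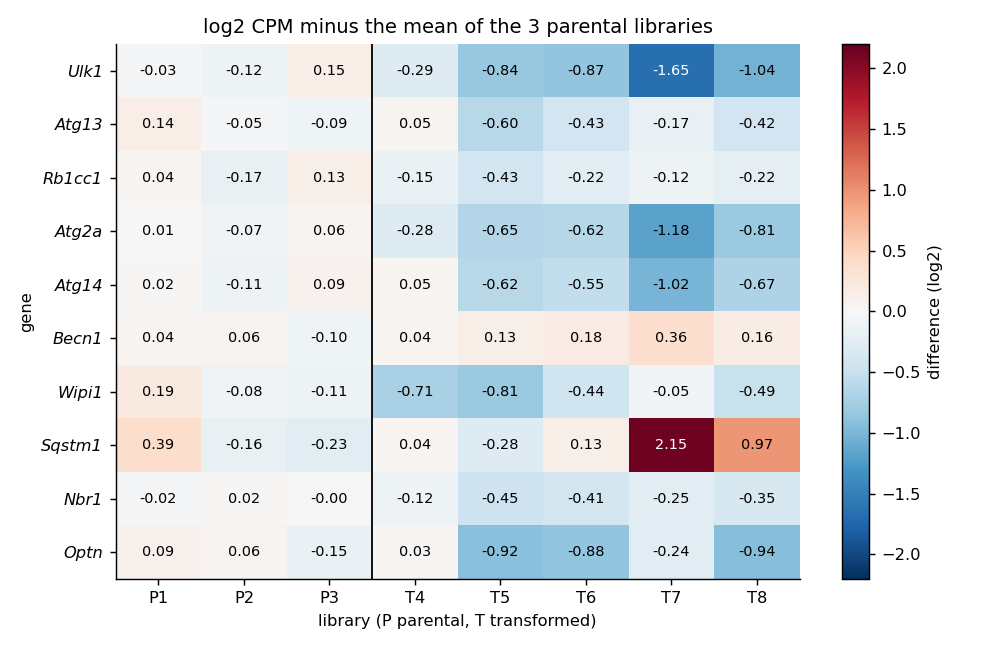
Difference of log2 CPM from the mean of the 3 parental libraries (colour and printed value, log2 scale) for the 10 genes (rows) in the 8 libraries (columns; P parental, T transformed). Transformed 7 holds the lowest Ulk1 (-1.65) and the highest Sqstm1 (2.15), and transformed 5, 6 and 8 resemble each other except in Sqstm1.

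Read by library, transformed 4 had 4 of the 10 genes below the parental range (Ulk1, Atg2a, Wipi1 and Nbr1) and 6 inside it. Transformed 5 had 9 below and 1 above, transformed 6 had 8 below, 1 inside and 1 above, and transformed 8 had 8 below and 2 above. Transformed 7 had 6 below, 2 inside (Rb1cc1 and Wipi1) and 2 above (Becn1 and Sqstm1). The median difference from the parental mean was -0.045 (log2) in transformed 4, -0.61, -0.44 and -0.46 in transformed 5, 6 and 8, and -0.21 in transformed 7.

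Counts of called genes followed the libraries in the fit. Without transformed 4, 5 of the 10 were lower (Ulk1, Atg2a, Atg14, Nbr1 and Optn; edgeR adjusted p from 0.00895 to 0.0331), where 9.26% of all genes were called lower. Without transformed 7, 3 were lower (Ulk1, Atg2a and Wipi1), where 4.76% were. Without both, 8 were lower, the exceptions being Becn1 and Sqstm1, where 16.1% were. These 2 libraries are the ones that stood apart in the same data, so this fit is no independent test. By the codes in their labels, parental 1, parental 3, transformed 5 and transformed 8 were in lane 6 and the other 4 libraries in lane 7. Within lane 6 the same 8 genes were lower (edgeR adjusted p from 0.00491 to 0.0375), where 10.8% of all genes were. Lane 7, with 1 parental library taken to vary like the others, gave edgeR calls for 0 of 18636 genes, while 507 had an unadjusted p under 0.05. Its log2 fold changes had the same sign for 9 of the 10, from -0.72 in Ulk1 to 1.28 in Sqstm1, and 0.0021 for Rb1cc1. Lane 6 holds neither transformed 4 nor transformed 7. The fit without those 2 libraries called the same 8 genes lower. It holds every lane 6 library, with parental 2 and transformed 6 of lane 7, so the 2 fits are not independent. Whether the lane or the libraries lie behind the lane 6 calls was not tested.

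No gene of the 10 was called higher in any of the 18 alternatives. The share of all genes called higher was 9.60% in lane 6, 6.25% without transformed 4, 2.87% without transformed 7 and 12.8% without both. DESeq2 called 3 lower, as given above, and lane 7 alone 0. In each of the remaining alternatives 0 of the 10 were called in either direction. The shares of all genes called lower and higher in them were 2.07% and 0.925% with RLE factors, 2.11% and 0.902% with upper-quartile factors, and 2.42% and 0.902% in limma-voom. With no low-count filter they were 1.14% and 0.428%, and with a filter of 1 CPM in 3 libraries 2.62% and 1.32%. With lane as a covariate they were 0.445% and 0.0846%. Leaving out parental 1 gave 0.354% and 0.0609%, parental 2 gave 0.183% and 0.0166%, and parental 3 gave 0.116% and 0.0276%. Leaving out transformed 5 gave 0.397% and 0.0907%, transformed 6 gave 0.329% and 0.0510%, and transformed 8 gave 0.351% and 0.0735%. In these fits few of all genes were called, so 0 of 10 is near the background.

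**Figure D3:**
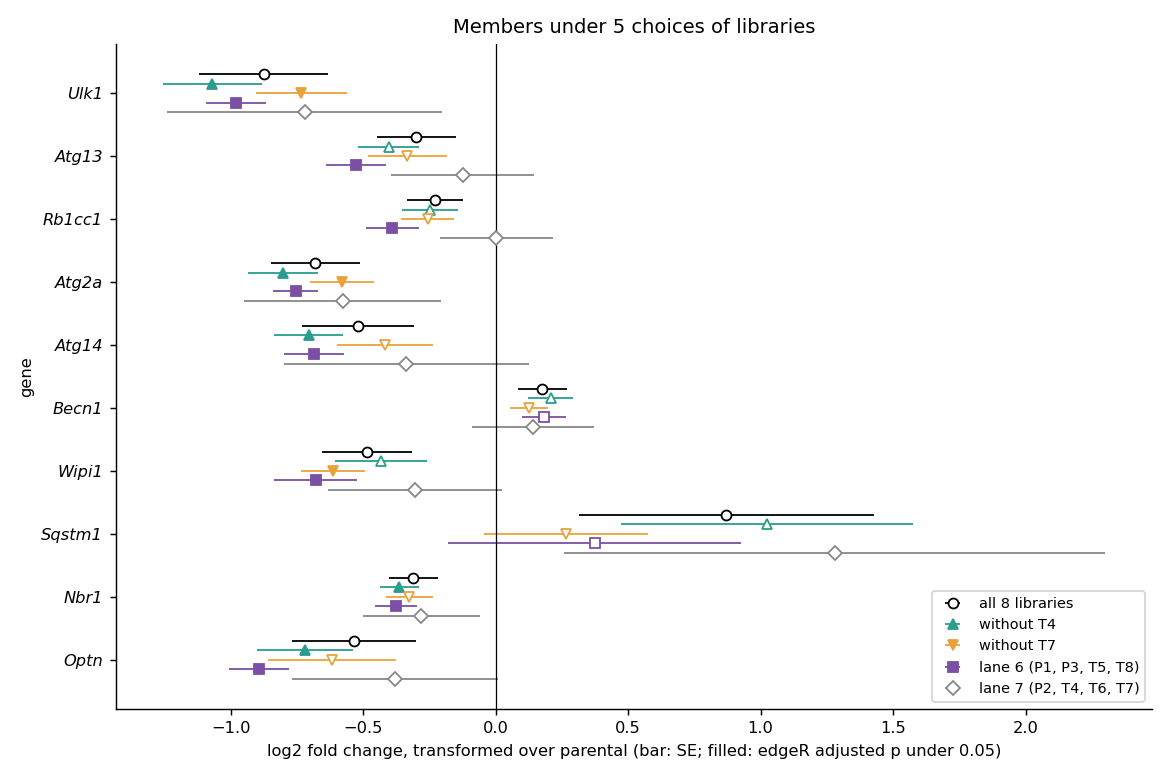
Log2 fold changes, transformed over parental (horizontal axis), of the 10 genes with all 8 libraries, without transformed 4, without transformed 7 and within each lane. Bars are SE and filled symbols an edgeR adjusted p under 0.05, which 0 genes reach with all libraries and 8 within lane 6. Sqstm1 moves from 0.26 without transformed 7 to 1.28 in lane 7.

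Per kilobase of annotated exon, Sqstm1 was the most abundant of the 10 transcripts in both groups, at 95.3 ± 23.7 CPM per kb in parental (SD, n = 3) and 174 ± 140.0 in transformed libraries (SD, n = 5). In parental cells it was followed by Nbr1 (16.2 CPM per kb), Becn1 (14.5), Atg13 (13.7), Atg2a (12.3), Optn (9.33), Ulk1 (6.98), Wipi1 (6.68), Rb1cc1 (4.35) and Atg14 (3.15). The parental ranges of neighbours in this order overlapped for Becn1 with Atg13 and for Ulk1 with Wipi1. In transformed cells Becn1 (16.4) came before Nbr1 (13.1) and Wipi1 (4.77) before Ulk1 (3.80). Exon lengths here join all annotated transcripts, so a level is understated where long rare transcripts widen the gene. Becn1 shares 43.9% of its exon bases with Cntd1, and how reads there were counted was unknown. Its place in the order is therefore uncertain.

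The wider pathway was described with 57 other genes, of which 55 were tested. Of these, 3 fell and 0 rose at an edgeR adjusted p of 0.05, where 2.10% of all genes tested were called lower and 0.908% higher. Their log2 fold changes were negative for 35 and positive for 20 (median -0.095), against 8454 negative and 9279 positive over all genes. Ncoa4, the receptor that takes ferritin into autophagy (chromosome 14), fell from 379, 286 and 316 CPM in parental to 198, 173, 188, 152 and 190 CPM in transformed libraries. The groups were separate, with a log2 fold change of -0.86 (SE 0.12, edgeR adjusted p = 0.0128), and the call was lost without parental 1 (edgeR adjusted p = 0.0534) and without parental 3 (edgeR adjusted p = 0.0805). Rtn3, a receptor for tubules of the endoplasmic reticulum, fell from 478 ± 17.7 CPM (SD, n = 3) to 350 ± 18.6 CPM (SD, n = 5; edgeR adjusted p = 0.0273). It lies on chromosome 19, where the 32 tested genes within 1 Mb had a median log2 fold change of -0.40. Zfyve1, a protein that binds PI3P and marks sites of autophagosome formation (chromosome 12), fell from 58.0 ± 2.55 to 42.1 ± 2.18 CPM (SD, n = 3 and 5; edgeR adjusted p = 0.0301). Both calls were lost without any 1 of parental 1, 2 or 3 or transformed 5, 6 or 8, with edgeR adjusted p from 0.0710 to 0.172 for Rtn3 and from 0.0747 to 0.165 for Zfyve1, fits in which at most 0.397% of all genes were called lower.

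By role, 0 of the 3 other ULK-related genes passed, and Ulk2, a second kinase of the type, was at 23.3 ± 1.91 and 23.8 ± 1.63 CPM (SD, n = 3 and 5; log2 fold change 0.035). Atg101, a partner of ATG13, had a log2 fold change of -0.054 (edgeR adjusted p = 0.804) and the kinase Ulk3 one of -0.069 (edgeR adjusted p = 0.811). The 15 genes of mTORC1, AMPK and their regulators had 0 calls and a median of -0.12. Over the 55 other genes tested, every transformed library lay below every parental one for 10 and above for 1. The shares of all genes were 9.69% and 8.07%. Stk11, Fkbp8 and Tex264 are among the 10. Nprl2, a subunit of the complex that holds back mTORC1 when amino acids are short, lay lower in 5 of 5 transformed libraries (29.2 ± 1.23 and 21.8 ± 2.07 CPM; SD, n = 3 and 5; edgeR adjusted p = 0.0587), as did Tsc1 (51.4 ± 0.82 and 38.3 ± 6.96 CPM; SD, n = 3 and 5; edgeR adjusted p = 0.121). Prkab1 was at most at 0.317 CPM. Of 4 other lipid-transfer genes 0 passed, and the scramblase Tmem41b was higher in 5 of 5 (29.4 ± 2.57 and 37.9 ± 2.16 CPM; SD, n = 3 and 5; edgeR adjusted p = 0.0715), while Atg2b, the paralog of Atg2a, had a log2 fold change of 0.058 (edgeR adjusted p = 0.702). Of 6 other lipid kinase genes 0 passed, and Rubcn, an inhibitor of the complex, lay lower in 5 of 5 (log2 fold change -0.31, edgeR adjusted p = 0.127), as did Pik3r4 (-0.24, edgeR adjusted p = 0.339). Of 4 other PI3P effectors Zfyve1 was the 1 called, and Wdr45 lay lower in 4 of 5 (-0.45, edgeR adjusted p = 0.134). Of 18 cargo receptor genes 17 were tested, with Ncoa4 and Rtn3 called, and Stbd1 had 0 counts in all 8 libraries. Of 7 transcription factors and regulators 6 were tested and 0 passed.

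**Figure D4:**
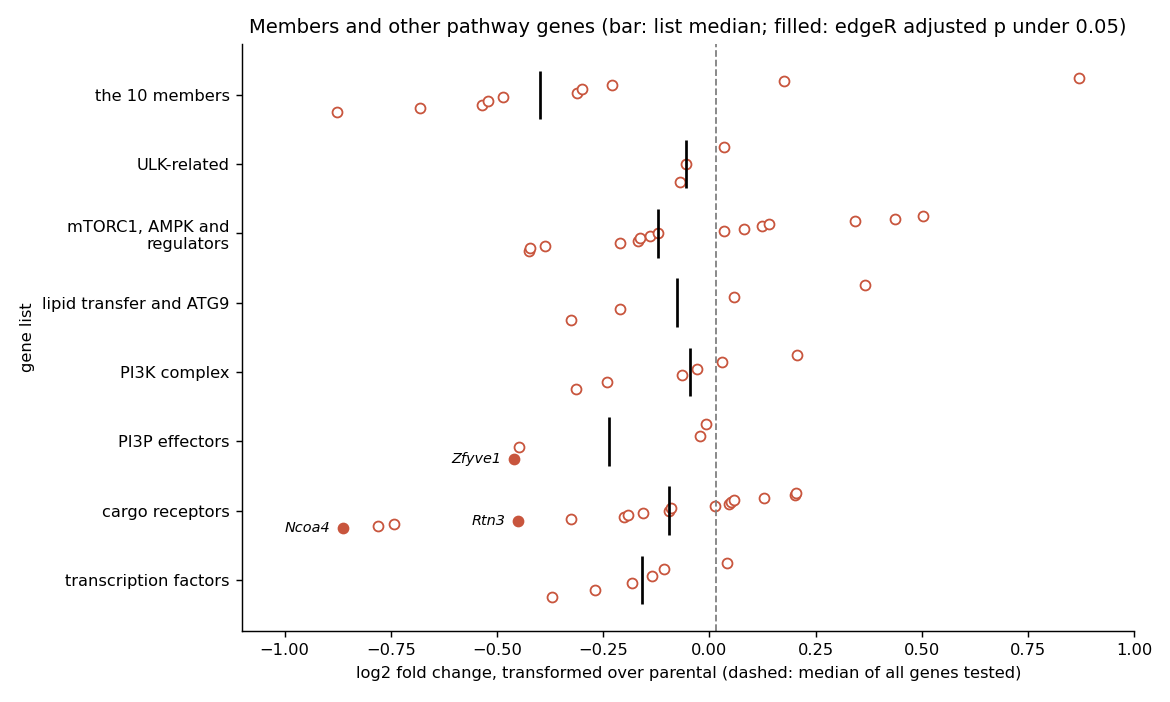
Log2 fold changes, transformed over parental (horizontal axis), of the 10 genes (top row) and of 55 other pathway genes by role. Bars are list medians, filled circles an edgeR adjusted p under 0.05, and the dashed line is the median of all genes tested (0.017). The filled circles are Ncoa4, Rtn3 and Zfyve1.

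Over the 8 libraries, the genes nearest to Ulk1 by root-mean-square difference of centred log2 CPM, among 9109 candidates, were Rnf167 (0.0935), Alox5ap (0.0936) and Smim24 (0.117). Those nearest to Sqstm1 were Eea1 (0.241), C9orf72 (0.250) and Acot2 (0.251). The distances of the Sqstm1 neighbours were larger, in the gene with the wider spread. Such lists are a description of 8 libraries that share the 2 group means.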

How the data were processed

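PolyA RNA was taken up in Trizol and sequenced from Illumina TruSeq libraries, per the labels' protocols. The authors deposited raw read counts per Ensembl gene for 8 libraries. STAR 2.5.3a and featureCounts 1.5.3, with the builds mm10 and GRCm38.p5, are listed in the submitters' processing notes. The use of strand and of multi-mapped reads, and the annotation release, were unknown (not given in the sources used here). Reads from overlapping genes are therefore uncertain. The table had 0 columns outside the 8 libraries. Symbols, coordinates and exon lengths came from GENCODE M21 (GRCm38), which lacked 105 genes with 0.0212% of counts.

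Differences were tested with edgeR 4.0.16 under R 4.3.3, after filterByExpr and TMM scaling, by its quasi-likelihood F test with robust dispersions, and p was adjusted over 17733 genes (Benjamini-Hochberg, threshold 0.05). SE is the log2 fold change over the square root of F. Log2 CPM used a prior count of 2. The test was run on simulated counts for this comparison (17733 genes, 200 changed). It recovered 19.4% of 1.5-fold, 50.7% of 2-fold and 87.9% of 4-fold changes, with 2 false calls of 107. The simulation gave each gene the same dispersion in both groups and held no library that stood apart. The transformed libraries differ from it in this, so the rates may not hold for them. Precision is limited by 3 and 5 libraries. Counts of 234 or more per gene and library lie behind each of the 10 genes. A count of 0 allows up to 3 counts, which is 0.0831 CPM or less, for counting error only.

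Named genes are the 10, and of each other list those called and the 2 with the smallest p, with some others named for their role or after their values were seen. The 3 nearest genes to Ulk1 and Sqstm1 needed an average log2 CPM of at least 3. The genes and lists were chosen with earlier results of these data known. Alternatives were RLE and upper-quartile factors, other filters, DESeq2 1.42.0, limma-voom (limma 3.58.1), lane as a covariate, each lane, and fits without each library or without transformed 4 and 7.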

Additional observations from a re-analysis of the deposited data

Results flagged for a closer look

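The 10 genes and the 55 other pathway genes tested were searched, in the 5 transformed libraries, for a library far from the others by Dixon's ratio (limit 0.71). Of these 65 genes, 9 held such a library, and 0 of the 9 were among the 10 genes. Independent normal values would give about 1 in 20, and the share over all genes was not computed. The flagged library was transformed 4 for Tsc1, Ambra1, Wdr45b and Calcoco1, transformed 7 for Vmp1, Uvrag, Tfeb and Nfe2l2, and transformed 6 for Ccpg1. Transformed 4 and 7 also stood apart over all 17733 genes tested. Whether the count of flagged genes is particular to these lists was not tested. The search was widened to all 65 genes after the values were seen.

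In transformed 4, Calcoco1 was at 65.4 CPM, against 25.8 to 28.7 CPM in the other transformed libraries. Tsc1, an inhibitor of mTORC1 signalling, was at 50.4 CPM there, just below the parental libraries (50.5 to 51.9 CPM) and against 33.1 to 37.9 CPM in the others. Ambra1, a partner of Beclin 1, was at 60.6 CPM, against 47.7 to 50.6 CPM. Wdr45b, a relative of Wipi1, was at 40.9 CPM, against 51.6 to 54.4 CPM.

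In transformed 7, Tfeb, a transcription factor of lysosome and autophagy genes, was at 8.46 CPM, against 15.03 to 17.1 CPM in the other transformed libraries. Nfe2l2 was at 107 CPM, against 57.9 to 64.9 CPM. Uvrag, another partner of Beclin 1, was at 55.7 CPM, against 37.1 to 38.6 CPM, and the scramblase Vmp1 at 201 CPM, against 106 to 127 CPM. Ccpg1 was low throughout, at 0.484 CPM in transformed 6 and 0.171 to 0.242 CPM in the others. Sqstm1 in transformed 7, at 1389 CPM, was not singled out by this ratio, since transformed 8 (613 CPM) lay between it and the rest.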

How the results depend on the processing

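Over 18 alternatives, 233 of 234 log2 fold changes of the 10 genes and of Ncoa4, Rtn3 and Zfyve1 kept their direction. The exception was Rb1cc1 in lane 7 alone (0.0021). These fits reuse the same libraries, so the 234 values are not independent. Of the 10 genes, 0 were called lower in edgeR with all libraries (2.10% of all genes), 3 in DESeq2 (5.64%) and 8 in lane 6 alone (10.8%). Without transformed 4 and 7, 8 were called lower (16.1%), and without 1 library 0 to 5 (0.116% to 9.26%). In every fit run, 0 were called higher, where up to 12.8% of all genes were. The median log2 fold change of the 10 genes, -0.40, was -0.60 in lane 6 alone and -0.29 in lane 7 alone. It was -0.54 without transformed 4 and 7, and -0.42 to -0.34 without 1 library. Of the other pathway genes, 3 were called lower in edgeR with all libraries (2.10% of all genes), 5 in DESeq2 (5.64%), 1 with lane as a covariate (0.445%), 11 in lane 6 alone (10.8%), 0 in lane 7 alone (0 of all genes), 15 without transformed 4 and 7 (16.1%), and 0 to 11 without 1 library (0.116% to 9.26%). Those called higher were 0 in edgeR with all libraries (0.908%), 1 in DESeq2 (4.79%), 2 in lane 6 alone (9.60%), 4 without transformed 4 and 7 (12.8%), and 0 to 1 without 1 library (0.0166% to 6.25%). These counts moved with the share of all genes called. The cause was not tested. With lane as a covariate Ncoa4 was called (edgeR adjusted p = 0.0424) and Rtn3 (0.0645) and Zfyve1 (0.0713) were not. Wherever a parental library was left out, at most 0.354% of all genes were called lower. No paired analysis was possible because the groups share no replicate numbers.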

Other observations

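Other regulators varied between transformed libraries in ways the group means do not show, and these values were picked after they were seen and were not tested. Keap1, whose protein holds NRF2 back and binds p62, was at 39.9, 46.4 and 47.7 CPM in parental 1, 2 and 3. It was at 44.1, 48.2, 38.9, 21.7 and 43.7 CPM in transformed 4 to 8, lowest in transformed 7. Nfe2l2, which encodes NRF2, was at 70.6 to 85.7 CPM in parental, 107 CPM in transformed 7 and 57.9 to 64.9 CPM in the other transformed libraries. Transformed 7 thus held the highest Sqstm1 and Nfe2l2 and the lowest Keap1, Tfeb and Ulk1 of the 8 libraries. Tfe3, another of the listed transcription factors, was not low there as Tfeb was. It was highest in transformed 7, at 74.3 CPM, against 62.2 to 68.8 CPM in parental libraries. Mitf and Foxo3 were neither highest nor lowest in transformed 7.

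Calcoco1, a cargo receptor for the endoplasmic reticulum, was at 50.3 to 65.5 CPM in parental and 65.4 CPM in transformed 4, but at 25.8 to 28.7 CPM in transformed 5 to 8 (log2 fold change -0.74, edgeR adjusted p = 0.209). Atg9a, which encodes the membrane protein of vesicles that seed the autophagosome, was at 61.3 to 65.8 CPM in parental, 74.0 CPM in transformed 4 and 34.4 to 51.3 CPM in transformed 5 to 8 (log2 fold change -0.33, edgeR adjusted p = 0.381). Mitf, a relative of Tfeb, was likewise highest in transformed 4 (43.6 CPM) and at 19.6 to 30.7 CPM in transformed 5 to 8. Tax1bp1, the receptor gene with the highest mean CPM of those listed, was at 819 ± 29.0 CPM (SD, n = 3) and 849 ± 95.2 CPM (SD, n = 5), with a log2 fold change of 0.052 (SE 0.10).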
